A study of Mus musculus with 6 samples.

Results

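The suppressors of cytokine signalling were read on arrays of sorted haematopoietic stem cells (HSCs) from mouse bone marrow. The 8 genes are Cish and Socs1 to Socs7, of 18194 genes on the array. Every probe set that the platform table pairs with exactly 1 of these symbols was taken, which gave 24 probe sets. Of these, Socs2 had 6, Socs4 and Socs7 had 4 each, Socs3 and Socs6 had 3 each, Socs5 had 2, and Socs1 and Cish had 1 each.

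The comparison rests on 6 arrays, 3 per group. The labels call one group Lrg-47-/- mutant (Lrg-47 is an older name of Irgm1, an interferon-induced GTPase) and the other wild type (WT). Both groups were C57BL/6 mice aged 8 to 12 weeks, housed free of specific pathogens, with no agent named, and the labels give neither the deleted part of the gene nor how many animals each array pooled. Cells were sorted as the Hoechst side population with Sca-1, c-kit and lineage staining, and their RNA was amplified in 2 rounds before hybridisation. The values are log2 expression values, so a difference of 1 is a doubling.

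SOCS proteins are feedback inhibitors of cytokine receptors. A cytokine activates JAK kinases, these phosphorylate STAT transcription factors, and STATs switch on SOCS genes, whose products bind the receptor or its kinase through an SH2 domain. A second domain, the SOCS box, recruits elongins B and C and a cullin, so that the bound partner can be ubiquitinated. Socs2 is best known as the inhibitor of growth hormone signalling and as a target of STAT5, and has been described as a brake on stem cell expansion under haematopoietic stress.

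Socs2 rose on the arrays labelled Irgm1-/-, by 2.91-fold to 4.42-fold in the 4 probe sets that passed the test. No other member did. A probe set was tested if it lay above its array's median on at least 3 of the 6 arrays, and passed if its adjusted p in limma was under 0.05. Of the 24 probe sets 19 were tested; 4 of them were higher, where 0.664% of all tested probe sets were, 0 were lower, against 0.722%, and 15 did not pass. The 4 are 21.1% of the tested members, where 1.39% of all 22580 tested probe sets passed, and all 4 belong to 1 gene, so they are not independent. The 4.42-fold is that of 1442586_at, which lay above the median on 3 Irgm1-/- arrays and 2 WT arrays. It thus met the filter through the group in which it is high. With every probe set tested, dim ones included, 1 of the 4 passed, 1449109_at (limma adjusted p = 0.0217). The median difference was −0.02 over the 19, and 0.011 over all tested probe sets.

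**Figure D1:**
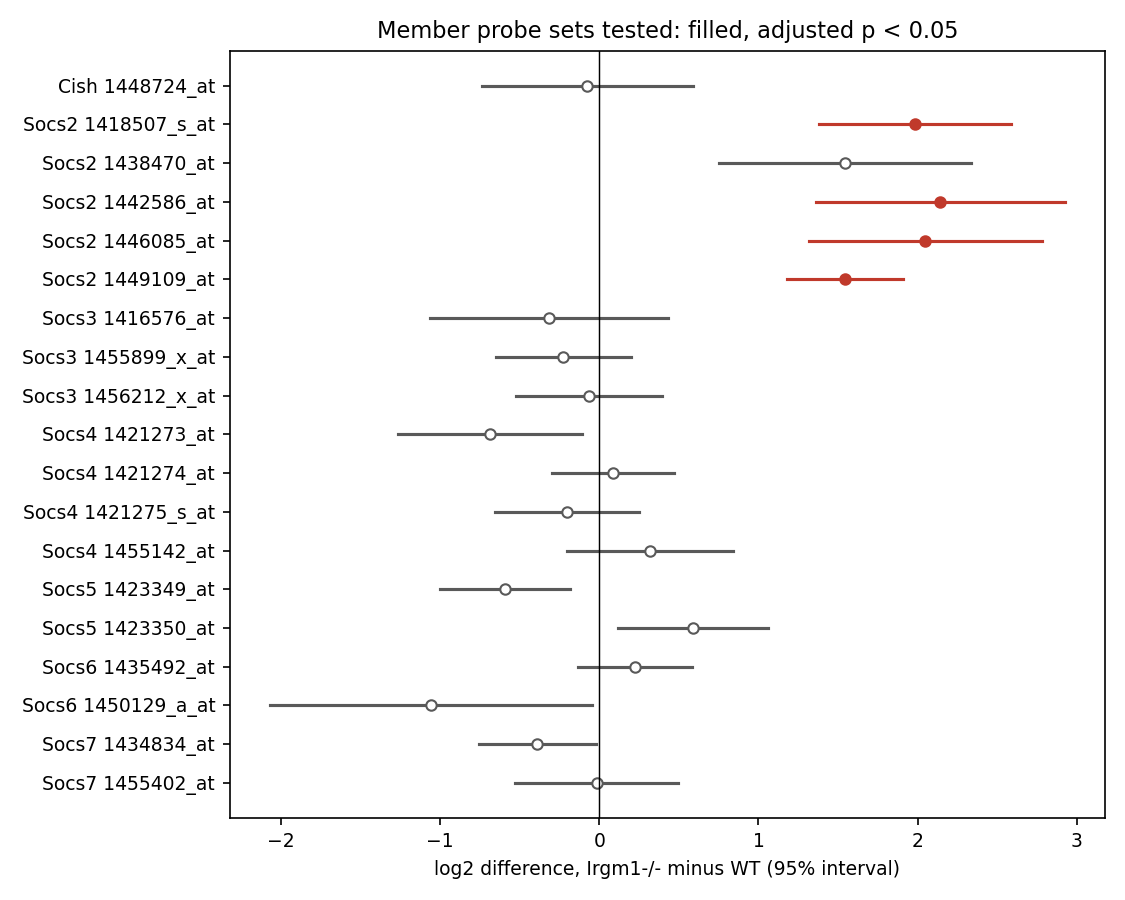
Log2 difference between the Irgm1-/- and WT arrays (x axis, with its 95% interval from limma) for the 19 tested probe sets of Cish and the Socs genes (y axis), 3 arrays per group. Filled red points passed at an adjusted p under 0.05; they are 4 of the 5 tested Socs2 probe sets, at 1.54 to 2.14, and the other open points lie between −1.06 and 1.55.

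Before the members are taken one by one, the arrays themselves were compared. Their medians lay between 3.67 and 3.73. Irgm1 was detected in both groups (difference −0.41, SE 0.25, limma adjusted p = 0.475), and a probe set outside the deleted part would check nothing, so groups are called by their labels. Of the stem cell markers, 14 of 16 were on the array and all 14 were tested. None was at or below the level of bacterial control probe sets on all arrays, and 0 passed in limma. Of the 14, 8 had an unadjusted p under 0.05, where 16.4% of all tested probe sets had one. The summed linear level of these markers was 34229 to 38717 on the Irgm1-/- arrays and 43706 to 48347 on the WT arrays, without overlap. That sum weighs the brightest genes most, and the 14 did not all fall. Their differences ran from −0.83 to 1.43, with a median of −0.33. The highest was that of Slamf1, whose Irgm1-/- arrays all lay above its WT arrays. Among markers of T and NK cells, 5 of 11 tested genes were higher and 0 lower, where 2.03% of all tested genes passed in either direction. The summed linear level of these markers was 9615 to 20676 on the Irgm1-/- arrays and 673 to 1141 on the WT arrays. Their mean log2 value was highest on Irgm1-/- replicate 3, at 7.0, against 5.67 and 5.54 on the other Irgm1-/- arrays and 4.14 to 4.40 on the WT arrays. Of 18 T and NK markers on the array, Cd4, Prf1 and Zap70 were at or below the bacterial controls on all arrays, and Cd3d, Cd3g and Il2rb on all WT arrays. Of the 5 higher genes, Gzmb was above the median on all Irgm1-/- arrays but only on replicate 1 of WT. It thus met the filter through the group in which it is high. Megakaryocyte markers had 1 of 6 tested genes higher and 1 lower, with a summed level of 3423 to 3884 on the Irgm1-/- and 2632 to 2941 on the WT arrays. Stromal and endothelial markers had 1 of 3 lower, with summed levels of 111 to 131 and 211 to 342, and Col1a1, Col3a1, Lepr and Pecam1 at or below the bacterial controls on all arrays. Myeloid markers had 2 of 9 higher, and their summed levels overlapped (3626 to 5352 and 2587 to 4832), with Ctsg, Elane and Itgam at or below the controls on all arrays. Of 2 B cell and 2 erythroid markers tested 0 passed in limma, 0 had an unadjusted p under 0.05, and their summed levels overlapped between groups. In bulk RNA, more cells that express a gene and more of its RNA per cell cannot be told apart, and the part of these markers in the results on the members was not tested.

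The Socs2 probe set with the highest mean, 1449109_at, is assigned to the gene's RefSeq transcript. It gave 11.34, 11.16 and 10.93 on the Irgm1-/- arrays and 9.46, 9.76 and 9.58 on the WT arrays. Every Irgm1-/- array lay above every WT array, and the gap between the nearest arrays of the groups was 1.18, several times the SD within either group. The group means were 11.14 ± 0.20 and 9.60 ± 0.15 (SD, n = 3 each), a difference of 1.54 (SE 0.16, 95% interval 1.18 to 1.91), or 2.91-fold, with a limma adjusted p = 0.00783. It ranked 43 by p among all 22580 tested probe sets. The probe set passed with any 1 array left out, with differences of 1.45 to 1.65 and adjusted p of 0.0148 to 0.0481. Without Irgm1-/- replicate 3, the array on which the T and NK cell markers were highest, the difference was 1.65. Leaving that array out does not remove these markers from the comparison. Their mean log2 value was 5.67 and 5.54 on the other Irgm1-/- arrays and 4.14 to 4.40 on the WT arrays. The part of these markers in the difference was not tested.

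A second probe set on the same RefSeq transcript, 1418507_s_at, gave 11.44, 11.16 and 10.42 on the Irgm1-/- arrays against 9.07, 9.12 and 8.88 on the WT arrays. Its suffix marks probes that can match more than one transcript. The groups did not overlap, and the difference was 1.98 (SE 0.26, limma adjusted p = 0.0197), or 3.96-fold. The difference was 2.28 without Irgm1-/- replicate 3 (adjusted p = 0.00858). With any other array left out the probe set no longer passed, at adjusted p of 0.0618 to 0.0898.

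The other 4 Socs2 probe sets are assigned to single GenBank entries. Of these, 1446085_at gave 8.20, 7.92 and 7.04 on the Irgm1-/- arrays against 5.73, 5.43 and 5.85 on the WT arrays. All 3 Irgm1-/- arrays were again above all WT arrays, by 2.05 on average (SE 0.31, limma adjusted p = 0.0324), or 4.14-fold. Probe set 1442586_at gave 5.51, 5.15 and 5.91 against 3.71, 3.81 and 2.64, a difference of 2.14 (SE 0.34, limma adjusted p = 0.0338), or 4.42-fold. On WT replicate 3 it lay below the highest bacterial control, so the size of its fold depends on the background correction at the dim end. The first passed only without Irgm1-/- replicate 3 among the 6 arrays left out in turn (2.39, adjusted p = 0.013) and the second only without WT replicate 3 (1.77, adjusted p = 0.0422); otherwise their adjusted p was 0.066 to 0.131.

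The fifth, 1438470_at, gave 5.06, 4.15 and 5.47 on the Irgm1-/- arrays against 3.28, 3.75 and 3.02 on the WT arrays. These groups did not overlap either, but the difference of 1.55 (SE 0.34) did not pass (limma adjusted p = 0.0911). Without Irgm1-/- replicate 2 it was 1.92 and passed (adjusted p = 0.0433). Without Irgm1-/- replicate 3 it was 1.26, and that of 1442586_at was 1.95, both smaller than with all arrays. The sixth, 1441476_at, read 2.98, 2.96 and 2.90 against 2.87, 2.97 and 2.89. All 6 values lie at or below the bacterial controls, so this probe set gave no signal above them in either group and was not tested.

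**Figure D2:**
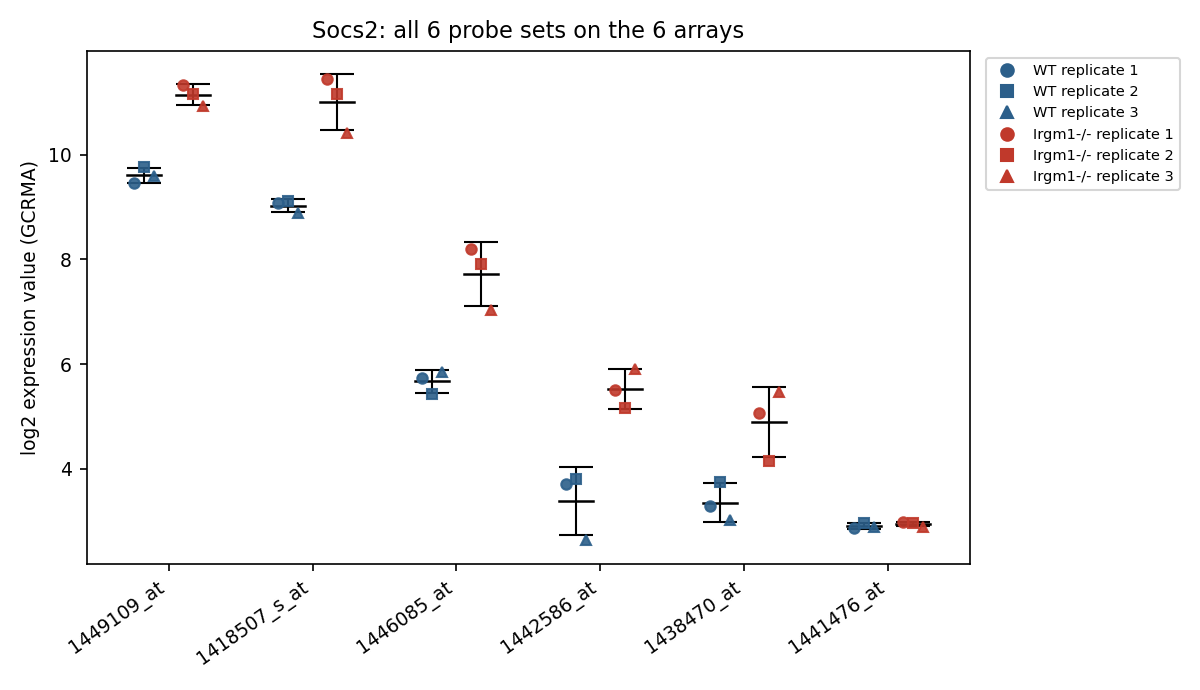
Log2 expression values (y axis) of the 6 Socs2 probe sets (x axis) on each array, blue for WT and red for Irgm1-/-, with shapes for the replicate number. Horizontal bars are group means and vertical bars 1 SD (n = 3); the groups are apart in the first 5 probe sets and overlap in 1441476_at.

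The 5 tested Socs2 probe sets did not rank the Irgm1-/- arrays alike. Replicate 3 was the lowest of the 3 Irgm1-/- arrays in 1449109_at, 1418507_s_at and 1446085_at, by 0.21, 0.59 and 0.68 under the group mean. The same array was the highest in 1438470_at and 1442586_at, by 0.58 and 0.39 over the group mean. Replicate 3 also had the widest actin gap, that is, how far the control probe set at the 3' end of the transcript exceeds the one at the 5' end, which grows as amplified RNA gets shorter. That gap was 2.86, 2.81 and 3.56 on the Irgm1-/- arrays and 3.16, 3.16 and 2.57 on the WT arrays. The same gap for Gapdh was widest on WT replicate 3, at 3.08, and was 2.57, 2.56 and 2.94 on the Irgm1-/- arrays and 2.77 and 2.72 on the other WT arrays. The part of RNA length or of the T and NK cell markers in the Socs2 values was not tested.

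Cish, the founding member of the family and like Socs2 a target of STAT5, did not pass the test. The one Cish probe set read 9.95, 10.30 and 10.58 on the Irgm1-/- arrays and 10.83, 10.45 and 9.79 on the WT arrays, so that the groups overlapped over most of their range. The difference was −0.08 (SE 0.28, 95% interval −0.74 to 0.59, limma adjusted p = 0.923). Its sign turned without Irgm1-/- replicate 1 (0.089) or WT replicate 1 (0.16). The interval leaves room for a difference of up to 0.59 upward, less than the 1.54 measured for Socs2.

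Socs3 restrains signalling of the interleukin-6 receptor chain gp130 and of the granulocyte colony-stimulating factor receptor, and is induced by STAT3. Its brightest probe set, 1455899_x_at, gave 10.88, 10.32 and 10.69 on the Irgm1-/- arrays and 11.04, 10.86 and 10.66 on the WT arrays. The groups overlapped, and the difference was −0.23 (SE 0.18, 95% interval −0.65 to 0.20, limma adjusted p = 0.582). The other two, 1456212_x_at and 1416576_at, differed by −0.07 and −0.32 (limma adjusted p = 0.902 and 0.668). Suffix x marks probes that can bind other genes' transcripts, so only 1416576_at is free of that reservation.

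Socs1, which blocks JAK kinases directly and is the main SOCS brake on interferon signalling, gave no signal above the controls. Its only probe set read 1.37, 1.37 and 1.34 on the Irgm1-/- arrays and 1.32, 1.35 and 1.32 on the WT arrays, all below the bacterial controls, whose highest values per array were 3.00 to 3.18. It was not tested, and no fold is given. Without the filter on dim probe sets, where 0.229% of all probe sets passed, it did not pass either (limma adjusted p = 0.526).

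The promoter table of RefSeq (build GRCm38.p6) held 4 of the 8 members, namely Cish, Socs1, Socs3 and Socs4. Socs2, Socs5, Socs6 and Socs7 were not matched. The windows run from 250 bases before to 50 after the annotated start. Both strands were searched for TTCNNNGAA, the core that STAT dimers bind, and for a core of the interferon-stimulated response element, GAAA followed by any 2 bases and GAAA again. The first was present in 8.30% and the second in 3.44% of all 32851 promoter windows. The 3 stretches below are shown because they carry these letters in Cish and Socs3, which did not pass the test, and in Socs1, which was not tested. Socs1 gave no signal above the bacterial controls, so its values cannot show whether it changed. They are written 5′ to 3′ along the gene, with the matches in capitals.
Cish, chr9:107296659-107296678, plus strand: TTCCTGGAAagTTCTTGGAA
Socs3, chr11:117969367-117969616, minus strand: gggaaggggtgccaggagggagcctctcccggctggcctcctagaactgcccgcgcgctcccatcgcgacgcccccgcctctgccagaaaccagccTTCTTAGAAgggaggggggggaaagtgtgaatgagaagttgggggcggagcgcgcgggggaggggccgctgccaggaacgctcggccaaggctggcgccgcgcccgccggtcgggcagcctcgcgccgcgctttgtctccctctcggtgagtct
Socs1, chr16:10785537-10785786, minus strand: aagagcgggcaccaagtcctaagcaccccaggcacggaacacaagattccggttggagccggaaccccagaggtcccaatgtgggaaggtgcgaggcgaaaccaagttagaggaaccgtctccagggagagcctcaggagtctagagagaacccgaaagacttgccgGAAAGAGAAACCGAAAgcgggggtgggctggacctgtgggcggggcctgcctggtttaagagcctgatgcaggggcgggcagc
Cish holds 2 matches to the STAT core, at the annotated start itself. Socs3 holds 1, which begins at position −154 from the start. Socs1 holds 2 overlapping matches to the interferon element, the first at position −83, and Socs4 holds neither motif. A match is a string of letters in this window and says nothing on whether a factor is bound there.

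Socs4 and Socs5 are close relatives with long N-terminal regions, described as regulators of the epidermal growth factor receptor. The 2 Socs5 probe sets, both assigned to the same GenBank entry, went opposite ways. Probe set 1423350_at gave 9.51, 9.63 and 9.21 on the Irgm1-/- arrays and 8.69, 9.20 and 8.71 on the WT arrays. Probe set 1423349_at gave 7.09, 7.14 and 7.32 on the Irgm1-/- arrays and 7.97, 7.69 and 7.66 on the WT arrays. The groups were apart in both, by only 0.0091 in the first. The differences were 0.59 (SE 0.20, limma adjusted p = 0.222) and −0.59 (SE 0.18, limma adjusted p = 0.173), so neither passed. The change of the first exceeded that of the second by 1.18. No single direction for Socs5 can be read from these arrays.

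The 4 Socs4 probe sets differed by −0.69 to 0.32. The probe sets, 1421273_at, 1421274_at and 1421275_s_at, are assigned to the same GenBank entry and differed by −0.69, 0.09 and −0.20. The lowest belonged to 1421273_at, at 3.03, 3.76 and 2.98 against 3.75, 3.75 and 4.33, with 2 of the 3 Irgm1-/- values at or below the bacterial controls (limma adjusted p = 0.240). The brightest, 1455142_at, gave 8.73, 8.70 and 8.50 on the Irgm1-/- arrays and 8.04, 8.16 and 8.78 on the WT arrays. There WT replicate 3 exceeded every Irgm1-/- array, and the difference of 0.32 (SE 0.22) did not pass (limma adjusted p = 0.529).

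Socs6 and Socs7 form the other pair of long members and have been linked to insulin receptor and Kit signalling. Probe set 1450129_a_at of Socs6 gave 3.56, 4.84 and 4.62 on the Irgm1-/- arrays and 4.74, 5.32 and 6.16 on the WT arrays. The difference of −1.06 (SE 0.43) was the lowest of all members, yet the groups overlapped and it did not pass (limma adjusted p = 0.286). A further Socs6 probe set, 1435492_at, differed by 0.23, and 1452764_at was above the median on 1 array and was not tested. Socs7 was read by 1455402_at at 12.68, 12.48 and 12.36 on the Irgm1-/- arrays and 12.13, 12.44 and 13.01 on the WT arrays, a difference of −0.02 (SE 0.22, limma adjusted p = 0.978). Its 1434834_at gave 10.23, 10.28 and 10.63 against 10.70, 10.67 and 10.94, without overlap, and did not pass (−0.39, SE 0.16, limma adjusted p = 0.286). The remaining 2 Socs7 probe sets lay at or below the bacterial controls on all arrays.

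**Figure D3:**
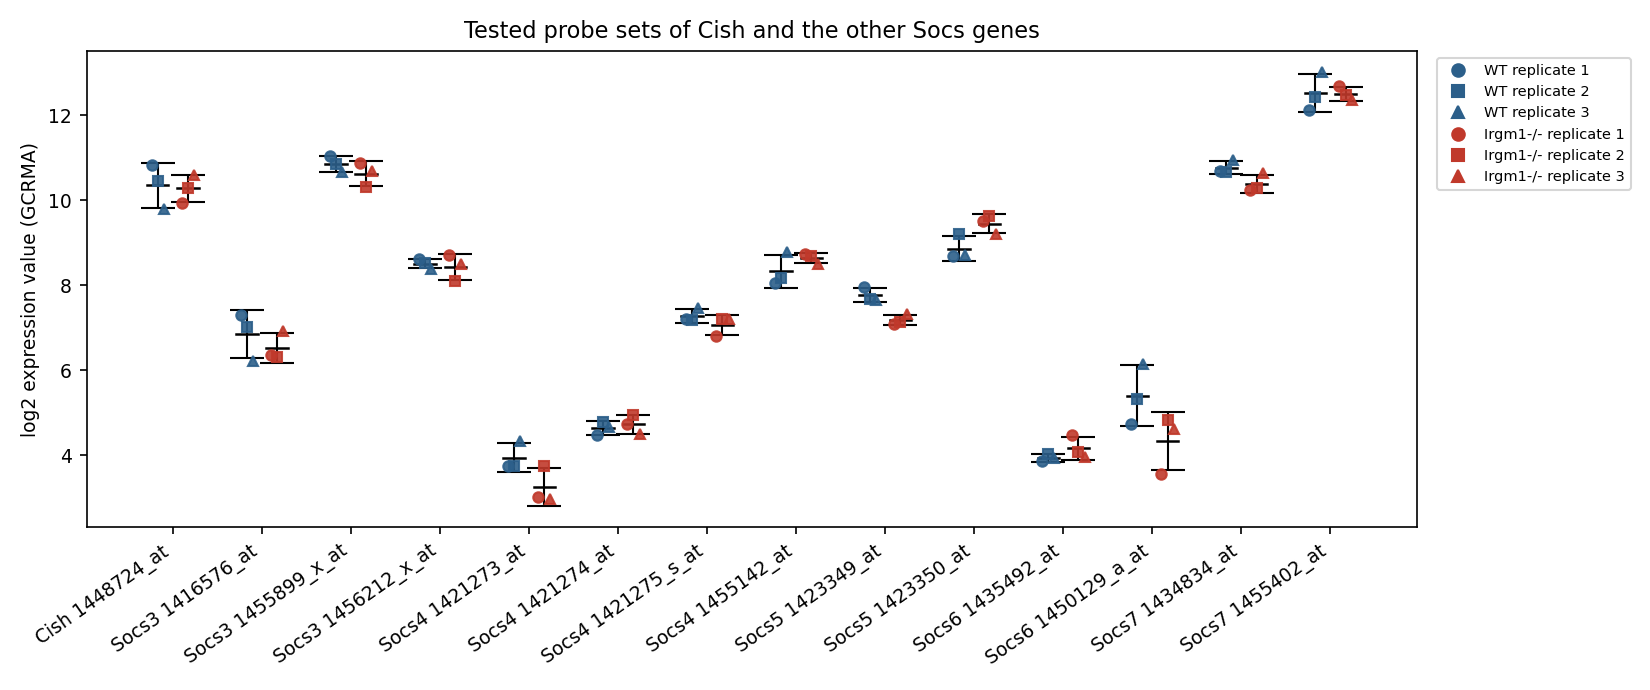
Log2 expression values (y axis) of the 14 tested probe sets of Cish and of the Socs genes other than Socs2 (x axis) on each array, blue for WT and red for Irgm1-/-; horizontal bars are means and vertical bars 1 SD (n = 3). The groups overlap in 11 probe sets and are apart in both Socs5 probe sets, in opposite directions, and in Socs7 1434834_at.

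Over these 14 probe sets limma called 0. An unadjusted p under 0.05 was found for 5 of the 14 (35.7%), where 16.4% of all tested probe sets had one. The groups did not overlap in 3 of the 14 (21.4%), where 22.6% of all tested probe sets had no overlap. In the 5 tested Socs2 probe sets the groups did not overlap. Of these, 1438470_at was above the median on 3 Irgm1-/- arrays and 1 WT array and 1442586_at on 3 and 2, so both met the filter through the group in which they are high, and the untested sixth probe set overlapped. Socs4 1421273_at and Socs6 1450129_a_at met it with 3 WT arrays and 1 and 2 Irgm1-/- arrays. Both are among the 5 with an unadjusted p under 0.05, as are the 2 Socs5 probe sets, which went opposite ways. The 35.7% is therefore not read as a result about the members.

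Whether Socs2 changed unequally to its relatives was asked with the brightest tested probe set of each gene. The change of Socs2 exceeded that of Socs6 by 2.60, Socs3 by 1.77, Cish by 1.62, Socs7 by 1.56, Socs4 by 1.23 and Socs5 by 0.96. The value for Socs6 rests on 1450129_a_at (−1.06), which met the filter with 3 WT and 2 Irgm1-/- arrays. The other tested Socs6 probe set, 1435492_at, went the other way, at 0.23. The value for Socs5 rests on 1423350_at (0.59), whereas its other probe set, 1423349_at, was at −0.59. The comparisons were made with the rise of Socs2 known. In all 6 pairs the Irgm1-/- arrays lay above the WT arrays. With the 2 Socs5 probe sets this made 7 comparisons. With 3 arrays per group the 2-sided exact permutation test cannot go below p = 0.10, the value it gave for each, and 0.10 after Benjamini-Hochberg adjustment, so none can pass at this number of arrays.

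The rest of the pathway was read from lists of genes, each gene by its brightest tested probe set. Of 96 tested genes other than the members, 1 was higher (Usp18), 2 were lower (Csf2rb2 and Pdlim2) and 93 did not pass. That is 3.12% passing, against 2.03% of all 10374 tested genes. The median difference of the 96 was −0.029, and 0.0032 over all tested genes. Leaving out 1 array gave 1 to 3 genes in place of 3; the count was 1 without Irgm1-/- replicate 1 or 2 or WT replicate 1 or 2.

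Signal-carrying genes did not pass. Of 10 tested JAKs and STATs 0 passed in limma, and 0 had an unadjusted p under 0.05, with differences of −0.43 to 0.29 and a median of 0.11. The smallest p belonged to Jak1 (−0.33, SE 0.16, limma adjusted p = 0.362). Stat5a and Stat5b, named for their role upstream of Socs2, were at 0.19 (SE 0.21) and 0.04 (SE 0.19), with limma adjusted p = 0.699 and 0.932; the sign for Stat5b turned with array weights (−0.050), without WT replicate 1 (−0.073) and without Irgm1-/- replicate 3 (−0.070). The partners of the SOCS box did not pass either, with 0 of 8 called and 1 at an unadjusted p under 0.05, elongin B (Elob, 0.45, SE 0.16, limma adjusted p = 0.235).

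Among receptors, 1 of 15 tested class I cytokine receptors was lower and 0 were higher. Csf2rb2, a signalling chain of the interleukin-3 receptor of the mouse, gave 7.98, 7.42 and 8.25 on the Irgm1-/- arrays and 9.18, 9.09 and 9.19 on the WT arrays. It fell by 1.27 (SE 0.23, limma adjusted p = 0.0486), and no longer passed without any 1 array other than Irgm1-/- replicate 3, at adjusted p of 0.104 to 0.172. The growth hormone receptor Ghr, the receptor Socs2 is best known to inhibit, gave 6.22, 7.64 and 6.99 against 7.41, 7.47 and 7.77. Its groups overlapped, and the difference of −0.60 (SE 0.35) did not pass (limma adjusted p = 0.441). Of 5 class II receptors 0 passed in limma and 1 had an unadjusted p under 0.05, the interferon receptor chain Ifnar1 (0.70, SE 0.29, limma adjusted p = 0.291).

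Of 6 receptor tyrosine kinases 0 passed by the brightest probe set, and 2 had an unadjusted p under 0.05. They were Flt3, a receptor of early progenitors (−1.23, SE 0.27, limma adjusted p = 0.0915), and the stem cell factor receptor Kit (−0.82, SE 0.26, limma adjusted p = 0.195). In both the groups did not overlap. A dimmer tested probe set of Kit, 1415900_a_at, had overlapping groups and did not pass either (−0.62, limma adjusted p = 0.347). Igf1r, the insulin-like growth factor receptor, was chosen after its values were seen. One of its 5 tested probe sets, 1428967_at, was lower at 8.84, 8.85 and 8.61 against 9.83, 9.80 and 10.50 (−1.28, SE 0.22, limma adjusted p = 0.0448), whereas its brightest was at −0.32 (limma adjusted p = 0.505). The lower probe set no longer passed without any 1 array, at adjusted p of 0.0559 to 0.139.

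Ligand transcripts were mostly near the floor. Of 24 ligands on the array 7 were tested, and 14 were at or below the bacterial controls on all arrays, the interleukin genes Il2, Il3, Il4, Il5, Il6, Il10, Il12b and Il21 among them. Limma called 0 of the 7, with 4 at an unadjusted p under 0.05. The smallest p belonged to interferon gamma (Ifng), a product of T and NK cells, at 6.28, 5.53 and 8.54 on the Irgm1-/- arrays and 3.97, 2.79 and 3.98 on the WT arrays. The groups did not overlap, and the difference of 3.21 (SE 0.73) did not pass (limma adjusted p = 0.10). On WT replicate 2 Ifng lay below the array's median and below the highest bacterial control. It thus met the filter through the group in which it is high, and the size of its difference depends on the background correction at the dim end. Its highest value was on Irgm1-/- replicate 3, where the T and NK cell markers were also highest; their part in it was not tested.

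Other inhibitors of JAK-STAT signalling went both ways, with 1 of 20 higher and 1 lower. Usp18, which detaches the ubiquitin-like protein Isg15 and blocks the type I interferon receptor, was the one that rose. It gave 6.65, 7.37 and 7.63 on the Irgm1-/- arrays and 4.06, 4.62 and 4.04 on the WT arrays, without overlap, a difference of 2.98 (SE 0.29, limma adjusted p = 0.00737), or 7.87-fold. Pdlim2, a ubiquitin ligase for STAT proteins, fell by 0.58, from 3.86, 4.02 and 4.02 on the WT arrays to 3.33, 3.33 and 3.48 (SE 0.10, limma adjusted p = 0.0454). Its Irgm1-/- values lie just above the bacterial controls and below the array medians, so it met the filter only through the 3 WT arrays, the group in which it is high. It no longer passed without any 1 array (adjusted p of 0.0516 to 0.161). The phosphatases and PIAS proteins of this list did not pass.

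Targets of STAT5 and of STAT3 were read as separate lists. Among 17 tested STAT5 targets other than the members limma called 0, and 2 had an unadjusted p under 0.05, with a median of −0.03 and a range of −0.73 to 0.75. Pim1, a kinase gene that STAT5 induces, gave 11.74, 11.35 and 11.73 on the Irgm1-/- arrays and 11.97, 11.99 and 12.18 on the WT arrays. It lay lower on all 3 Irgm1-/- arrays and did not pass (−0.44, SE 0.14, limma adjusted p = 0.199). Of 14 STAT3 targets other than Socs3, 0 passed in limma and 3 had an unadjusted p under 0.05. The smallest p was that of Birc5, a gene of dividing cells (1.27, SE 0.24, limma adjusted p = 0.0593). The difference between the lists was not tested.

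**Figure D4:**
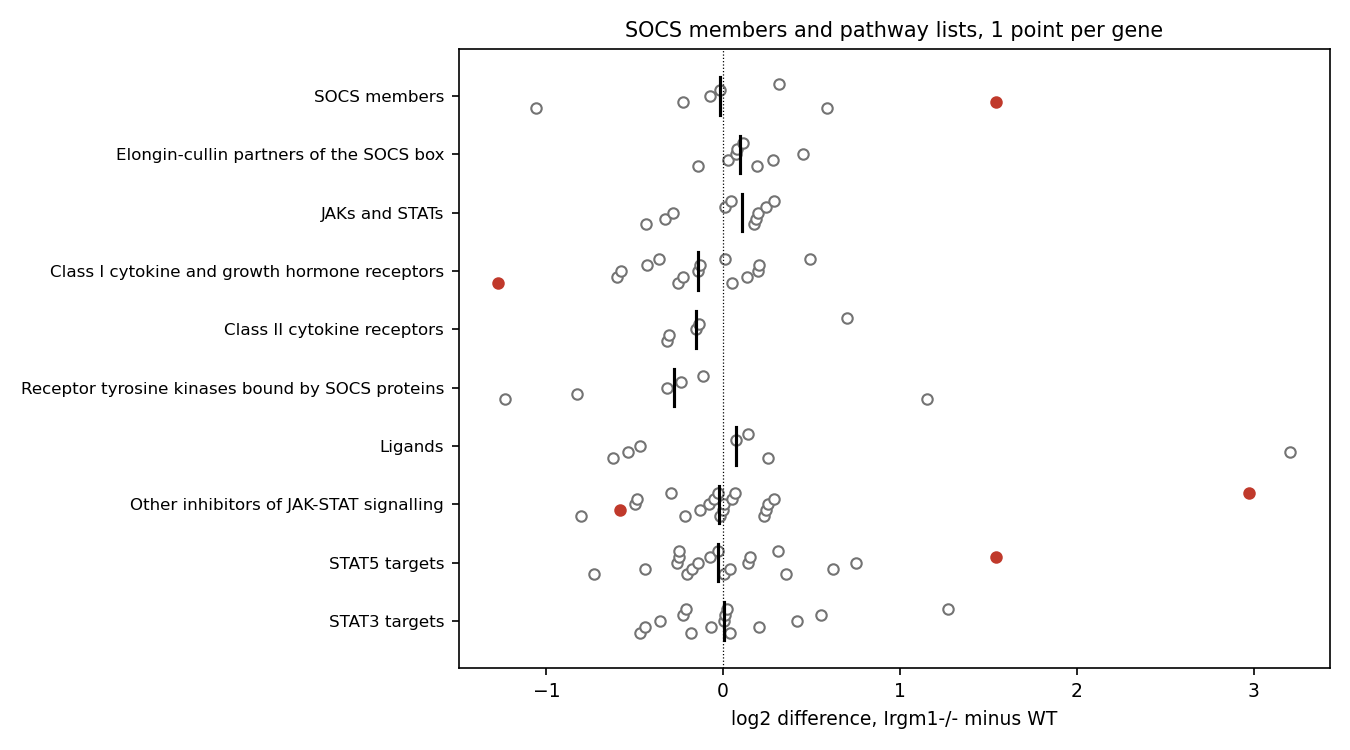
Log2 difference between the Irgm1-/- and WT arrays (x axis) for each tested gene by its brightest probe set, in the list of SOCS members and 9 lists of the pathway (y axis); filled red points passed at an adjusted p under 0.05 and vertical bars are list medians. Socs2 (1.54) is the filled point in the SOCS list and again in the list of STAT5 targets, and 3 other points are filled, those of Usp18 (2.98), Csf2rb2 (−1.27) and Pdlim2 (−0.58).

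The genes whose profile over the 6 arrays was nearest to that of Socs2 1449109_at were found by Euclidean distance between log2 values centred on each probe set's mean. The nearest 5 were Zbp1 (distance 0.29), Dscc1 (0.40), Mt1 (0.40), Rfc4 (0.43) and Ifi27 (0.45). Zbp1 is a nucleic acid sensor that interferon induces, Dscc1 and Rfc4 encode parts of clamp loaders of DNA replication, Mt1 is a metallothionein and Ifi27 an interferon-induced gene. Their differences were 1.32, 1.46, 1.77, 1.28 and 1.58, which the choice by profile fixes near that of Socs2, so they are given as a description.

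Cish had other neighbours, namely Napa (distance 0.12), Myo1c (0.15), Rhog (0.15), Txndc5 (0.19) and Hip1r (0.20), with differences of −0.07, −0.07, −0.02, −0.12 and 0.0022, of which that of Hip1r was below 0 after median centring (−0.024). Each of these 5 was lowest on WT replicate 3 or Irgm1-/- replicate 1, as Cish was, and highest on WT replicate 1. As Socs2 and Cish themselves do, the 5 nearest to Socs2 keep the groups apart and the 5 nearest to Cish do not, which follows from how they were found.

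**Figure D5:**
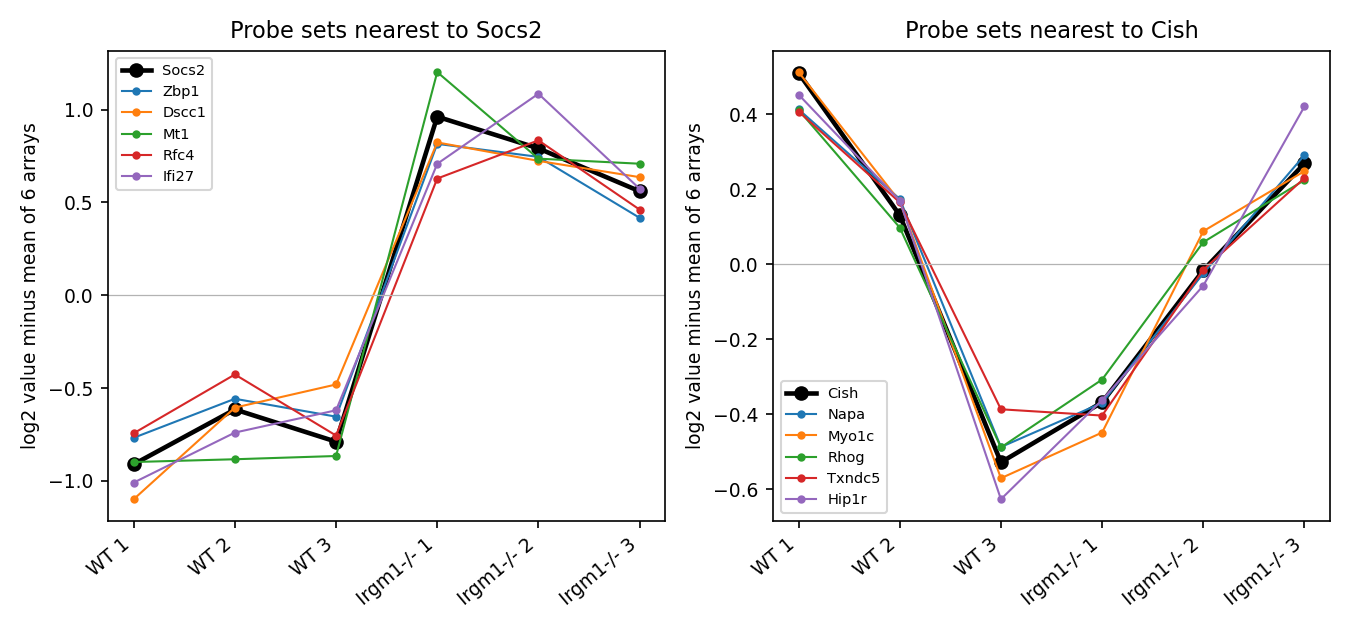
Log2 value minus the mean of the 6 arrays (y axis) on each array (x axis) for Socs2 1449109_at with its 5 nearest genes (left) and Cish with its 5 (right); lines only join the values of 1 probe set. On the left all WT points lie below 0 and all Irgm1-/- points above, and on the right the groups overlap.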

How the data were processed

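Expression was measured on 6 Affymetrix arrays of sorted mouse HSCs, 3 per group. The values the authors deposited are log2 expression values per probe set, for which the submitters' processing notes name GCRMA (version not given in the sources used here). GCRMA estimates background from probe sequence, so that probe sets with no signal lie close together at low values. The values were used as deposited. Of 45101 probe sets, 34958 had 1 symbol, 932 several and 9211 none, and 34754 probe sets matched the RefSeq gene table of GRCm38.p6, which gave their current symbols.

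Probe sets above the array's median on at least 3 of 6 arrays were tested, without Affymetrix controls, with limma 3.58.1 in R 4.3.3 (lmFit and eBayes with an intensity trend), 2-sided, with Benjamini-Hochberg adjustment over all 22580. Tested on simulated data in which 200 of 22580 probe sets were changed, it found 40.0% of the 2-fold changes and 76.0% of the 4-fold ones. The simulated noise was normal and independent between probe sets, with each probe set's measured SD. Real arrays can share differences across probe sets, so these shares may not hold for them. The number of arrays limits the precision, and p-values measure only the spread between these samples, which may be technical.

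Members, lists and tests were chosen with earlier results of these data known. Named genes were the members, Irgm1, and up to 6 called genes of each pathway list or else the one with the smallest p. They also included up to 3 genes of a marker list and the 5 nearest profiles of Socs2 and Cish. Marker lists are given here mostly as counts and summed levels. Ghr, Kit, Stat5a, Stat5b, Pim1 and Igf1r were named outside this rule. Alternatives were other filters, normalisations and variance models, weighted arrays, a block for the replicate number and leaving out each array. Planned comparisons of protein sequences were not made, and a planned list of target genes is not reported here and was left out of the pathway counts.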

Additional observations from a re-analysis of the deposited data

How the results depend on the processing

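All 5 tested Socs2 probe sets were higher under every alternative that tested them. Socs2 1449109_at passed in every alternative except the replicate block (1.54, adjusted p = 0.0562), with adjusted p of 0.00154 to 0.0562. The correlations of same-numbered deviations from the group means over tested probe sets were −0.11, −0.02 and −0.28. Those of differently numbered arrays ran from −0.20 to 0.24. Deviations within a group depend on each other because its mean is removed, so these values do not settle whether the replicate numbers pair the arrays. With that block 68 probe sets passed in all, 1 of the members and 1 pathway gene, against 313, 4 and 3. Testing every probe set, dim ones included, gave counts of 103, 1 and 1, and setting the filter at the array's percentile 25 gave 126, 2 and 1. Array weights gave 864 probe sets in all and 8 pathway genes, and the fit with no intensity trend gave 1 pathway gene. Leaving out 1 array gave 45 to 267 probe sets, 1 to 3 members and 1 to 3 pathway genes, fewest overall without WT replicate 2, and 1.45 to 1.65 for Socs2 1449109_at.

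Signs turned only for probe sets that did not pass. With 1 array left out, the ranges were −0.36 to 0.16 for Cish, −0.20 to 0.10 for Socs3 1456212_x_at, −0.027 to 0.20 for Socs4 1421274_at, −0.21 to 0.22 for Socs7 1455402_at, −0.33 to 0.12 for Napa, −0.38 to 0.16 for Myo1c, −0.26 to 0.19 for Rhog, −0.35 to 0.048 for Txndc5 −0.073 to 0.15 for Stat5b and −0.31 to 0.23 for Hip1r. Array weights gave 0.10 for Socs7 1455402_at, −0.050 for Stat5b and −0.22 for Hip1r, for which median centring gave −0.024 and quantile normalisation −0.0070. The causes of these changes were not tested.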
